A study of Mus musculus with 4 samples.

Results

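The 10 genes described here, Clec7a, Cst7, Itgax, Spp1, Gpnmb, Axl, Trem2, Tyrobp, Lilrb4 and Cd9, are commonly used to recognise disease-associated microglia, and they were taken by symbol from 15690 genes in all. All 10 were found in the count tables. Microglia are the resident macrophages of the brain, and the disease-associated state is a programme that they take up around damage, amyloid and tumours. Its surface receptors sense lipids, sugars and dying cells, and Trem2 passes its signal through the adaptor Tyrobp and the kinase Syk. Homeostatic microglia genes go down in the programme, and a later stage of it depends on Trem2. Macrophages that enter the brain from the blood can express many of the same genes, so none of the 10 marks microglia alone.

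The cells were myeloid cells sorted from the brains of Balb/C athymic nude mice (CAnN.Cg-Foxn1nu/Crl) that carried brain metastases of lung cancer. Mice of this strain lack a thymus and so nearly all mature T cells. Single cells were sorted into plates of 384 wells, and each of 4 groups was 1 plate. The sorts were BMDM, the macrophage sort of the study, and microglia, each taken once from mice without whole brain radiation therapy (WBRT), whose tumor stage was given as small, and once from mice with WBRT (5 fractions of 2 Gy, day 3 in the label), whose tumor stage was given as not stratified. Radiation, tumor stage and plate therefore changed together and cannot be told apart, and the labels used here do not say how many mice a plate pooled. With 1 library per group no difference below has a replicate check. Every interval is a 95% interval for counting error alone (exact Poisson for a level, exact conditional for a fold, exact Clopper-Pearson for a share of wells), and no p-value is given.

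Wells with at least 1000 counts outside spike-in (ERCC) and mitochondrial rows and an ERCC share under 50% were kept. This left 234 BMDM wells without WBRT, 262 BMDM wells with WBRT, 157 microglia wells without WBRT and 151 microglia wells with WBRT. Counts per kept well had medians of 4388, 8894, 4789 and 2546 in that order. The microglia plate with WBRT stood apart, with a median ERCC share of 30.6% against 6.92% to 7.86% on the other plates. Wells are named by plate position, so no cell barcode could be compared between libraries. Wells were also marked by other genes. At least 2 of 6 microglia markers (P2ry12, Tmem119, Siglech, Sall1, Gpr34, Olfml3) had a count in 83.4% and 67.5% of microglia wells without and with WBRT, but also in 34.2% and 53.8% of BMDM wells. At least 2 dendritic cell markers were found in 50.4% of BMDM wells without WBRT and 9.16% with WBRT. At least 2 of 6 markers of border-associated macrophages (Mrc1, Pf4, Cd163, F13a1, Folr2, Lyve1) were found in 11.5% and 69.1% of BMDM wells. A well could carry several of these marks. In the microglia plates border-macrophage-marked wells made up 4.46% without and 13.2% with WBRT. The 5 astrocyte markers summed to 98.4 and 879 CPM there (counts scaled to a library total of 1e6), with Slc1a3 at 92.6 and 466 CPM. At least 2 astrocyte markers had a count in only 0.637% and 3.31% of microglia wells. In BMDM Mrc1, Pf4, F13a1 and Folr2 were higher with WBRT, but Cd163 stood at 5.53 and 5.57 CPM and Lyve1 at 5.53 and 1.99 CPM. Monocyte markers summed to 1156 and 1240 CPM in the BMDM plates and to 38.9 and 6.16 CPM in the microglia plates. In BMDM their members differed in opposite directions, with Ccr2 at 389 and 969 CPM, Plac8 at 698 and 254 CPM and Ly6c2 at 45.1 and 1.99 CPM without and with WBRT. Summed markers of neutrophils, T and NK cells, B cells, neurons and tumor epithelium were at most 17.4 CPM in every library, those of oligodendrocytes 85.7 to 182 CPM and those of endothelial cells 34.8 to 55.3 CPM. Only part of these lists was found: 2 of 5 neutrophil, 2 of 5 T and NK cell and 2 of 4 tumor genes. For B cells, neurons and endothelial cells it was 3 of 4, and for oligodendrocytes 4 of 5. The T and NK cell genes found were Ncr1 and Klrb1c, while the T cell genes Cd3e, Cd3g and Trac were not found. Counts were made on the mouse build GRCm38, so a low tumor sum cannot show whether RNA of non-mouse tumor cells was present. Erythroid markers (2 of 4 found) were at most 1.59 CPM except on the irradiated microglia plate (94.5 CPM). Dendritic cell markers summed to 1708 and 160 CPM in the BMDM plates and to 280 and 316 CPM in the microglia plates. In the microglia plates 263 and 308 CPM of that sum were Fscn1, and Flt3, Zbtb46 and Cd209a were at 0 on both. In the BMDM plates every dendritic cell marker but Cd209a (37.2 and 47.8 CPM) was lower with WBRT. Ccr7 went from 495 to 1.19 CPM there and Fscn1 from 778 to 50.6 CPM. Deeper wells reach 2 markers more easily, and beyond leaving such wells out their part in the results was not tested.

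Read gene by gene, the 10 genes did not move as one set with WBRT. Gpnmb was the gene that was at least 2-fold higher in both sorts. Trem2 reached that fold in BMDM and Clec7a in microglia, and Itgax came closest to it in the other direction, in microglia. In BMDM 2 of 10 genes were at least 2-fold higher with WBRT, where 5.17% of the 6535 genes that reached 20 CPM in either library were, and 0 of 10 were at least 2-fold lower, against 6.15% of those genes. In microglia 2 of 10 were at least 2-fold higher, against 9.38% of 6706 genes, and 0 of 10 at least 2-fold lower, against 7.58%. The median log2 ratio of the 10 genes, on CPM plus 5, was 0.19 in BMDM and 0.17 in microglia, beside 0.08 and 0.06 over all genes tested. Their summed level was 6576 CPM in BMDM without and 6010 CPM with WBRT, and 6237 CPM in microglia without and 7445 CPM with WBRT. Spp1, Axl, Cst7 and Cd9 had log2 ratios of opposite sign in the 2 sorts, and for Spp1 and Axl the counting interval excluded 1 in both. Each of the 10 genes passed the filter of 20 CPM in both comparisons.

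**Figure D1:**
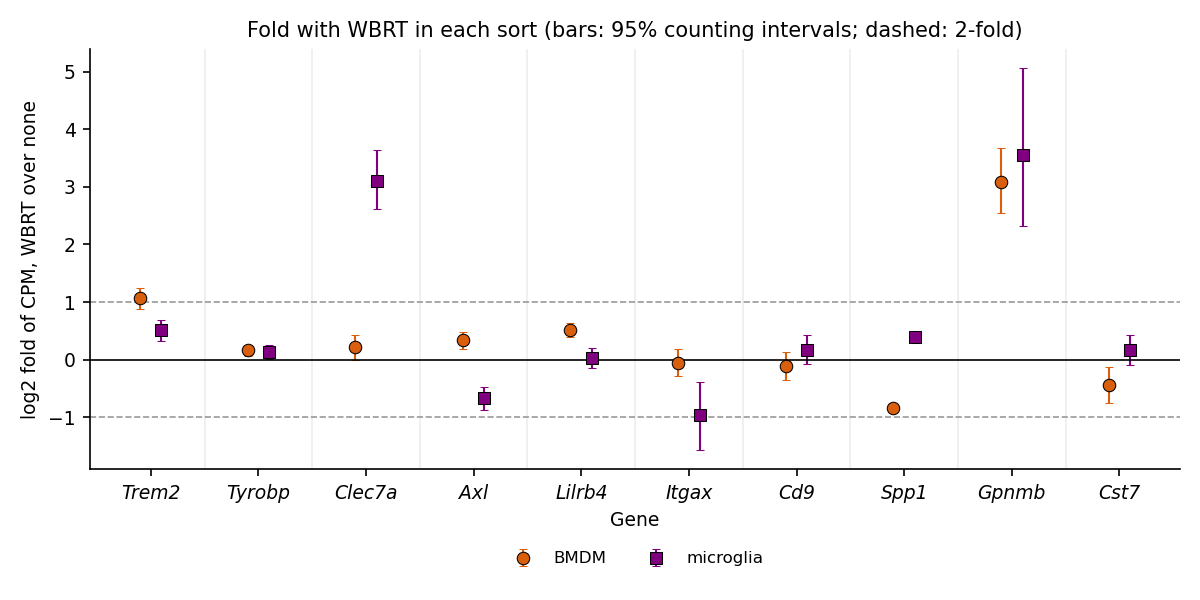
Log2 fold of pooled CPM, WBRT over none, for each gene in the BMDM sort (circles) and the microglia sort (squares), with 95% counting intervals and dashed lines at 2-fold. Gpnmb lies above 2-fold in both sorts, Clec7a in microglia and Trem2 in BMDM, and Spp1 and Axl lie on opposite sides of 0 in the sorts with intervals that exclude 0.

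Promoter sequence is shown for the genes on which these differences turn: the 3 that passed 2-fold (Gpnmb, Trem2, Clec7a) and Spp1 and Axl, whose ratios had opposite signs with both counting intervals excluding 1. Each runs from 250 bases before to 50 bases after a start site, 5′ to 3′ on the gene's strand, from RefSeq on GRCm38.p6, which held promoters for 8 of the 10 genes. Capitals mark matches on either strand to 4 motifs: TGANTCA, a looser form of the site of AP-1 factors, which has C or G in the middle, GAGGAA, the core of PU.1 sites (TTCCTC when it lies on the opposite strand), CACGTG, the E-box of MITF and TFE factors, and the PPAR and RXR site, a repeat of AGGTCA spaced by 1 base. No matches overlapped. Where a gene had 2 entries, the first is shown.
Gpnmb (chr6:49036268-49036567, plus strand): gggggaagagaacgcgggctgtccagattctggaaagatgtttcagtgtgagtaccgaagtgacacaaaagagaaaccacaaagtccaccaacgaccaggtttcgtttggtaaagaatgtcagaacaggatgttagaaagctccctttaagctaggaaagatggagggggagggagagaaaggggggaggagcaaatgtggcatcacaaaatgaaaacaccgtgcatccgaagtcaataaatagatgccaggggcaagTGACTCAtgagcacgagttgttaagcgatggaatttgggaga
Trem2 (chr17:48346151-48346450, plus strand): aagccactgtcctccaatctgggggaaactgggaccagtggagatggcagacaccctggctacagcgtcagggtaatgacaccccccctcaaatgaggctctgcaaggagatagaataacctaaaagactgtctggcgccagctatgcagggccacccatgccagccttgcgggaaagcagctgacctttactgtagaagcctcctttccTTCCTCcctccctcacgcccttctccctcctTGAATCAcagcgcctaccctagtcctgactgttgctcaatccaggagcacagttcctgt
Clec7a (chr6:129472730-129473029, minus strand): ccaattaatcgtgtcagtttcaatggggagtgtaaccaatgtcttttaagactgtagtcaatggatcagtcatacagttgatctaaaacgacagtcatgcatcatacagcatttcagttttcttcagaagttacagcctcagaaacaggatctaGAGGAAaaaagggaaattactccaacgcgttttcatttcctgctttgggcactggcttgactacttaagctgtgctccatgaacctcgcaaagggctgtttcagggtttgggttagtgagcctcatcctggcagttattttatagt
Spp1 (chr5:104434861-104435160, plus strand): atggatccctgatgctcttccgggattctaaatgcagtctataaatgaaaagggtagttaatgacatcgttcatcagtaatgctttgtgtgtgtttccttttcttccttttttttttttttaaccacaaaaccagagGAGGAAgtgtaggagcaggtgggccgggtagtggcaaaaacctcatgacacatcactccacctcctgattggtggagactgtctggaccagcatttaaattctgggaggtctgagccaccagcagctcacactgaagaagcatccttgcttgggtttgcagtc
Axl (chr7:25788684-25788983, minus strand): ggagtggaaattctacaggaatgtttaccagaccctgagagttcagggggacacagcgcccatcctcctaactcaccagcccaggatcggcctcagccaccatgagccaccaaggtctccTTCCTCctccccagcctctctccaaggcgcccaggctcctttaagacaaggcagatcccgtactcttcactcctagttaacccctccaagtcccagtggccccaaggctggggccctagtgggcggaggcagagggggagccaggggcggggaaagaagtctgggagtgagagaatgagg
TGANTCA began 9 bases after the start of Gpnmb and 9 bases before that of Trem2, and also lay in the promoters of Itgax and Cst7. Only the matches of Gpnmb (TGACTCA) and Itgax (TGAGTCA) have the C or G of the AP-1 site. Those of Trem2 (TGAATCA) and Cst7 (TGATTCA) have A or T there. GAGGAA or its complement began 40 bases before the start of Trem2, 96 before that of Clec7a, 113 before that of Spp1 and 130 before that of Axl. Among 32851 promoters of the same length TGANTCA was found in 7.81%, GAGGAA in 28.3%, CACGTG in 7.15% and the PPAR and RXR site in 0.0396%. The last pair was not found in the members' windows, and a match describes letters, not binding.

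Among the receptors, Trem2 (chromosome 17, 48346401 to 48352276), the lipid-sensing receptor of microglia and macrophages, was higher with WBRT in both sorts. It stood at 240 CPM in BMDM without and 504 CPM with WBRT, and at 536 CPM in microglia without and 765 CPM with WBRT. That is 2.10-fold higher (interval 1.85 to 2.38) in BMDM and 1.43-fold higher (1.25 to 1.62) in microglia. The microglia difference was smaller in wells with at least 1000 CPM of the nuclear RNA Malat1. Trem2 stood there at 530 CPM (473 to 590) without and 602 CPM (520 to 691) with WBRT, with overlapping intervals. In microglia wells under that limit it stood at 553 CPM (466 to 652) and 931 CPM (828 to 1042). After every well was thinned to 1000 UMIs, Trem2 had a count in 14.1% and 34.0% of BMDM wells and in 39.5% and 52.3% of microglia wells. The irradiated BMDM plate thus reached a level near that of unirradiated microglia, and the order of the 4 libraries was the same in shares as in CPM. In BMDM the fold was 1.24 (1.02 to 1.52) within border-macrophage-marked wells and 1.68 (1.37 to 2.06) without them, both lower than over all wells. Without dendritic-marked wells it was 1.85 (1.56 to 2.20), and without microglia-marked wells 2.85 (2.17 to 3.78). The direction held in each of these sets of wells, but the 2-fold mark was passed only without the microglia-marked wells.

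Tyrobp (chromosome 7, 30413782 to 30417582) encodes the ITAM adaptor that carries Trem2 signals, and it differed far less than Trem2. Its level was 1102 CPM in BMDM without and 1236 CPM with WBRT, and 1283 and 1414 CPM in microglia. The folds were 1.12 (1.05 to 1.20) in BMDM and 1.10 (1.01 to 1.20) in microglia. In BMDM the fold was 0.990 (0.910 to 1.08) without dendritic-marked wells and 0.846 (0.758 to 0.948) within border-macrophage-marked wells. In wells that kept at least 1000 CPM of the nuclear RNA Malat1, the microglia fold was 0.871 (0.766 to 0.991), on the other side of 1.

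Clec7a (chromosome 6, 129461591 to 129472785), which encodes the beta-glucan receptor Dectin-1, was low in one library alone. The levels were 204 CPM in BMDM without WBRT, 236 CPM in BMDM with WBRT, 44.6 CPM in microglia without WBRT and 384 CPM in microglia with WBRT. In microglia this was 39 counts against 249, or 8.61-fold higher with WBRT (6.12 to 12.4), above 99.4% of the genes tested. In BMDM the fold was 1.16 (0.999 to 1.35). At equal depth, 2.55% of microglia wells without WBRT (0.698 to 6.39) and 26.5% with WBRT (19.6 to 34.3) had a count, while the BMDM wells had 16.7% and 22.5%. The order of the sorts turned with WBRT: BMDM was 4.57-fold higher than microglia without it (3.26 to 6.58) and 1.63-fold lower with it (1.40 to 1.89).

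The Clec7a difference in microglia was present in each set of wells that was looked at. In the microglia-marked wells, 131 without and 102 with WBRT, it stood at 36.7 and 367 CPM, with a fold interval of 6.77 to 15.2. Wells with Malat1 of at least 1000 CPM gave 7.99-fold (5.17 to 12.7) and wells under it 8.54-fold (4.83 to 16.4). Leaving out border-macrophage-marked wells gave 9.55-fold (6.63 to 14.1). Wells with fewer than 2 microglia markers, 26 without and 49 with WBRT, gave a smaller fold of 2.85 (1.41 to 6.53), with 156 CPM already present without WBRT.

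**Figure D2:**
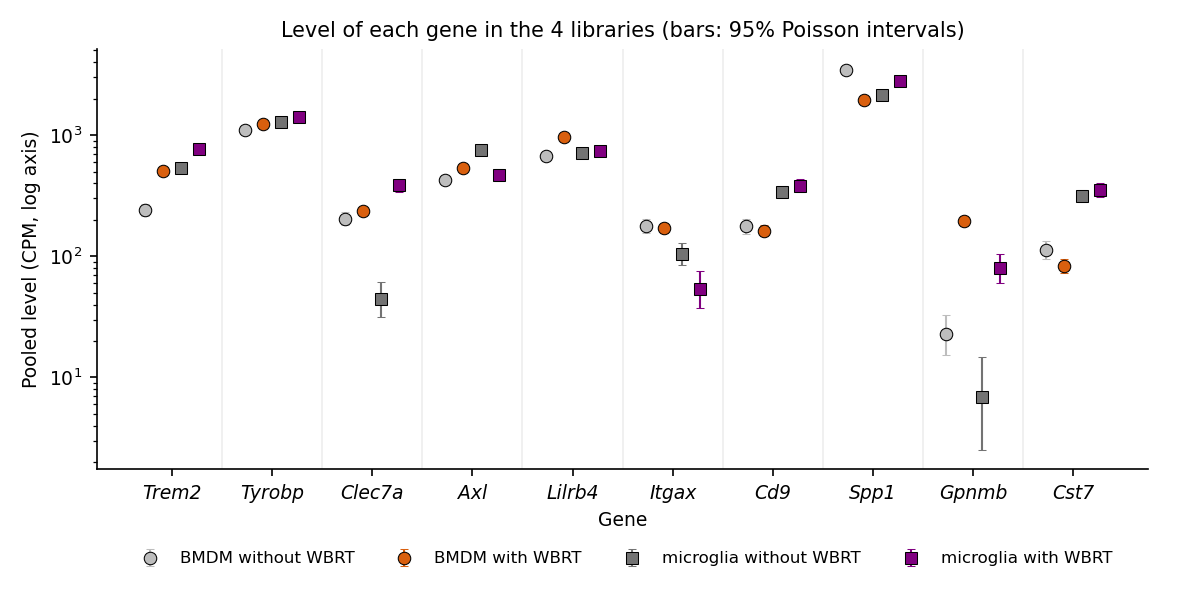
Pooled level (CPM, log axis) of each gene in the 4 libraries, with 95% Poisson intervals; circles are BMDM and squares microglia, grey without WBRT and coloured with WBRT. Clec7a is low in microglia without WBRT (44.6 CPM) and Gpnmb is low in both sorts without WBRT (22.9 and 6.86 CPM).

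Axl (chromosome 7, 25756500 to 25788924), a receptor tyrosine kinase of the TAM family that binds dying cells through its ligand Gas6, differed in opposite directions. It stood at 428 CPM in BMDM without and 539 CPM with WBRT, but at 747 CPM in microglia without and 470 CPM with WBRT. Axl was 1.26-fold higher (1.14 to 1.39) in BMDM and 1.59-fold lower (1.39 to 1.83) in microglia. Microglia without WBRT thus held the highest level and the other 3 libraries lay between 428 and 539 CPM. The share of wells with a count at equal depth was 33.3% and 37.0% in BMDM and 45.9% and 33.8% in microglia. In BMDM the difference was not seen once border-macrophage-marked wells were left out (fold 0.927, 0.788 to 1.09) or dendritic-marked wells were left out (1.07, 0.942 to 1.22). In microglia Axl was 1.60-fold lower (1.38 to 1.87) in microglia-marked wells, and lower in wells on both sides of the Malat1 limit. Thinned wells depended on the random draw: in the draw used for the shares a well held a mean of 0.713 UMIs without and 0.517 with WBRT, while a further draw gave a log2 ratio of -0.03 against -0.66 over all counts.

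Lilrb4 (chromosome 10, 51490898 to 51496613, Lilrb4a in RefSeq) encodes an inhibitory immunoglobulin-like receptor. Its level was 669 CPM in BMDM without and 955 CPM with WBRT, and 717 and 733 CPM in microglia. The fold was 1.43 (1.32 to 1.55) in BMDM and 1.02 (0.906 to 1.15) in microglia. At equal depth the share of BMDM wells with a count was 31.2% without and 58.4% with WBRT, and that of microglia wells 40.8% and 36.4%. On the microglia plates sets of wells differed in opposite directions: 1.43-fold higher (1.24 to 1.65) where Malat1 was at least 1000 CPM, and 1.65-fold lower (1.29 to 2.11) where it was under that limit. In the set with the higher level the share of wells with a count was 86.2% without and 66.7% with WBRT, and over the whole irradiated plate 8 wells held 49.8% of the Lilrb4 counts. Its neighbour Gp49a (51480612 to 51486329, Lilr4b in RefSeq) is a near-identical copy, and how the authors' counting split reads between them is not given in the sources used here. Gp49a stood at 37.1, 182, 24.0 and 92.5 CPM in the order BMDM without, BMDM with, microglia without and microglia with WBRT. It was 4.90-fold (3.62 to 6.76) and 3.85-fold (2.31 to 6.66) higher with WBRT, so the values of both genes are uncertain as gene levels.

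Itgax (chromosome 7, 128129526 to 128150657) encodes the integrin chain CD11c, used as a marker of dendritic cells and of activated microglia. Levels were 177 CPM in BMDM without and 171 CPM with WBRT, and 105 and 54.0 CPM in microglia. Itgax was 1.95-fold lower with WBRT in microglia (1.31 to 2.97), from 92 counts against 35, and its BMDM fold was 0.965 (0.819 to 1.14). In thinned microglia wells the share with a count was 8.92% (4.96 to 14.5) and 3.31% (1.08 to 7.56). On the irradiated microglia plate 8 wells held 82.9% of the Itgax counts. The gene was therefore carried by few wells there. Where Malat1 was at least 1000 CPM it was 3.85-fold lower (1.83 to 9.33), and under that limit 1.58-fold lower (0.923 to 2.72).

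In the BMDM sort the Itgax values went both ways between sets of wells. Within dendritic-marked wells, 118 without and 24 with WBRT, Itgax was 182 and 323 CPM, and in the wells without 2 dendritic cell markers 170 and 152 CPM. Wells with Malat1 under 1000 CPM had 163 and 67.1 CPM (2.43-fold lower, 1.17 to 4.95). Wells without 2 border-macrophage markers had 193 CPM without and 275 CPM with WBRT, a fold of 1.42 (1.15 to 1.76).

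Cd9 (chromosome 6, 125460266 to 125494760), a tetraspanin that organises membrane proteins, separated the sorts more than the treatments. It stood at 176 and 163 CPM in BMDM without and with WBRT, and at 339 and 382 CPM in microglia. The folds with WBRT were 0.926 (0.785 to 1.10) in BMDM and 1.13 (0.950 to 1.34) in microglia, both with intervals that include 1. Sets of BMDM wells went both ways: Cd9 was 2.25-fold higher (1.19 to 4.67) where Malat1 was under 1000 CPM, at 0.821 (0.688 to 0.980) in the other wells, and 2.55-fold lower (1.84 to 3.54) in monocyte-marked wells. BMDM was 1.92-fold lower than microglia without WBRT (1.61 to 2.30) and 2.34-fold lower with it (1.99 to 2.75).

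Gpnmb (chromosome 6, 49036518 to 49058182) encodes a transmembrane glycoprotein of lysosomes and the cell surface, and it had the largest CPM fold of the 10 genes in both sorts. It stood at 22.9 CPM (29 counts) in BMDM without and 195 CPM (489 counts) with WBRT. In microglia it stood at 6.86 CPM (6 counts) without and 80.1 CPM (52 counts) with WBRT. Gpnmb was low in both libraries without WBRT and higher in both with it, 8.49-fold in BMDM (5.84 to 12.8) and 11.7-fold in microglia (5.02 to 33.3), and the log2 ratio on CPM plus 5 was 2.84 in each (2.97 for Clec7a in microglia on that scale). Thinned wells with a count went from 2.14% to 9.54% in BMDM and from 0.637% to 8.61% in microglia. Expression was uneven between wells: 14 of the 262 irradiated BMDM wells held 70.5% of its counts.

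The set of wells with the higher pooled Gpnmb level differed between the sorts, but few wells carried the counts. On the irradiated BMDM plate 373 of 489 Gpnmb counts lay in microglia-marked wells, which held 1608129 of the plate's 2513025 counts. Gpnmb stood at 232 CPM there and at 128 CPM in the other wells. A count was found in 35.5% (27.6 to 44.0) and 28.9% (21.0 to 37.9) of these wells, with overlapping intervals. The microglia-marked wells there were deeper, with a median of 10737 counts against 6687 in the other wells. A single well held 15.9% of the Gpnmb counts of that plate. Over the plate without WBRT, the microglia-marked wells gave 25.2-fold (11.5 to 69.2), from 9.20 CPM, and the other wells 3.42-fold (2.17 to 5.61). On the irradiated microglia plate the 102 microglia-marked wells held 10 counts (19.5 CPM), against 6 counts (7.34 CPM) without WBRT, a fold of 2.66 (0.875 to 8.90). The 49 wells with fewer than 2 microglia markers held 42 counts (307 CPM). In the 26 such wells without WBRT the count was 0, and against the 3 counts that a 0 allows over those wells Gpnmb was at least 5.89-fold higher. These wells had medians of 2187 counts with and 1777 without WBRT, so missing markers and shallow depth cannot be told apart in them. Without border-macrophage-marked wells the folds were 9.74 (5.86 to 17.0) in BMDM and 9.31 (3.90 to 27.0) in microglia.

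**Figure D3:**
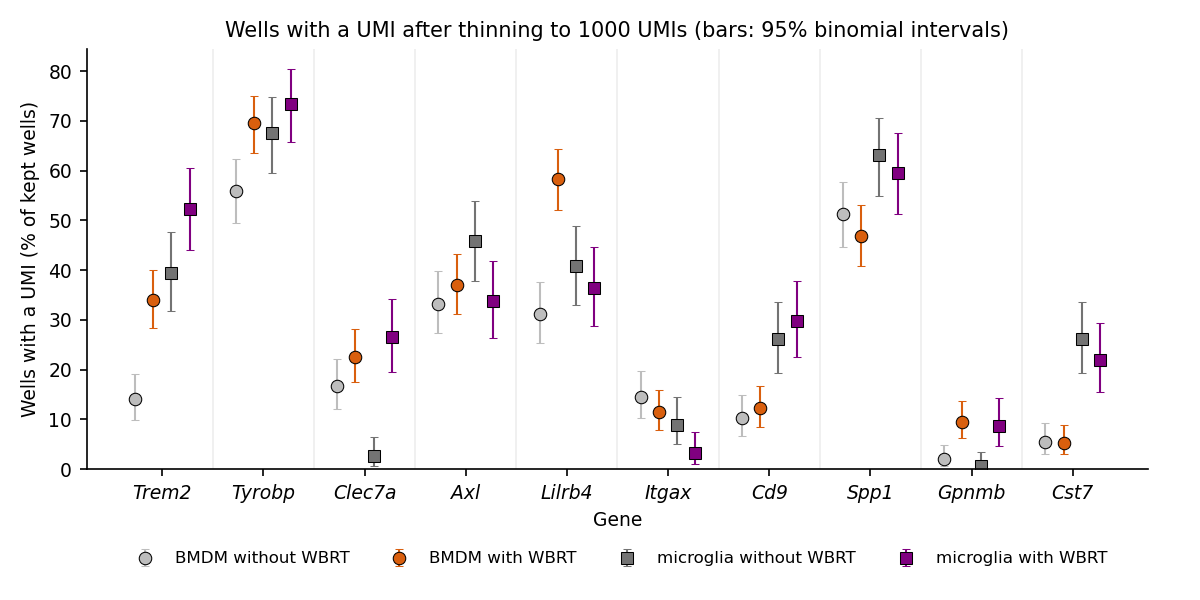
Share of kept wells (%) with at least 1 UMI of each gene after every well was thinned to 1000 UMIs, with 95% binomial intervals, in the same colours as the plot of levels. The shares of Gpnmb and Trem2 were higher with WBRT in both sorts, and that of Clec7a in microglia went from 2.55% to 26.5%.

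Spp1 (chromosome 5, 104435111 to 104441053) encodes osteopontin, a secreted ligand of integrins and Cd44. It stood at 3443 CPM in BMDM without and 1928 CPM with WBRT, and at 2144 and 2809 CPM in microglia. Spp1 was 1.79-fold lower with WBRT in BMDM (1.71 to 1.86) and 1.31-fold higher in microglia (1.23 to 1.40). The narrow intervals reflect high counts and not the spread between wells. In BMDM without WBRT 12 wells, the top 5%, held 71.6% of the Spp1 counts and a single well 22.4% (978 counts). On the irradiated BMDM plate the top 5% held 44.9%. Without the top 5% of wells of each plate the BMDM log2 ratio went from -0.83 to 0.02. Leaving out marked wells gave larger differences: Spp1 was 2.06-fold lower (1.96 to 2.17) without dendritic-marked, 2.41-fold lower (2.18 to 2.66) without microglia-marked and 2.24-fold lower (2.06 to 2.44) without border-macrophage-marked wells. At equal depth the share of wells with a count was 51.3% and 46.9% in BMDM. In microglia it was 63.1% (55.0 to 70.6) without and 59.6% (51.3 to 67.5) with WBRT, with overlapping counting intervals. A thinned microglia well held a mean of 2.34 Spp1 UMIs without and 3.01 with WBRT.

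In microglia the Spp1 direction depended on the wells. Where Malat1 was at least 1000 CPM, Spp1 was 1.41-fold lower with WBRT (1.25 to 1.59), at 1686 and 1196 CPM. Where it was under that limit, Spp1 was 1.37-fold higher (1.26 to 1.50), at 3243 and 4455 CPM. Wells under the limit made up 44.6% of the plate without and 70.2% with WBRT. In microglia-marked wells the fold was 1.11 (1.03 to 1.20).

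**Figure D4:**
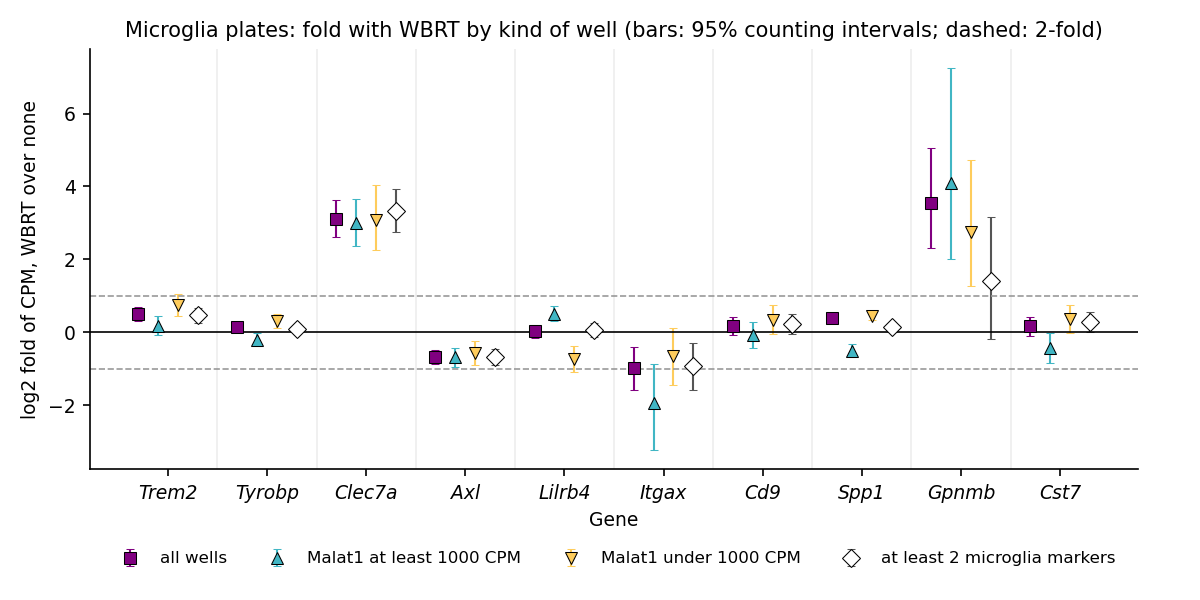
Log2 fold of CPM with WBRT on the microglia plates for all wells, for wells on each side of 1000 CPM of Malat1 and for wells with at least 2 microglia markers, with 95% counting intervals and dashed lines at 2-fold. Clec7a is above 2-fold in all 4 sets, whereas Spp1 and Lilrb4 change sign between the Malat1 sets.

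Cst7 (chromosome 2, 150570415 to 150578944) encodes cystatin F, an inhibitor of cysteine cathepsins in endosomes and lysosomes. It stood at 113 CPM in BMDM without and 83.6 CPM with WBRT, and at 315 and 353 CPM in microglia. Cst7 was 1.35-fold lower with WBRT in BMDM (1.09 to 1.68), and its microglia fold was 1.12 (0.938 to 1.34). The thinned shares were 5.56% and 5.34% in BMDM and 26.1% and 21.9% in microglia, with overlapping counting intervals in each sort. The BMDM direction did not hold without border-macrophage-marked wells (fold 1.18, 0.840 to 1.65), and the fold was 0.972 (0.749 to 1.27) without monocyte-marked wells. In microglia wells with Malat1 of at least 1000 CPM it was 0.750 (0.560 to 0.995). The sorts differed more: BMDM was 2.78-fold lower than microglia without WBRT (2.27 to 3.43) and 4.22-fold lower with it (3.49 to 5.12).

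**Figure D5:**
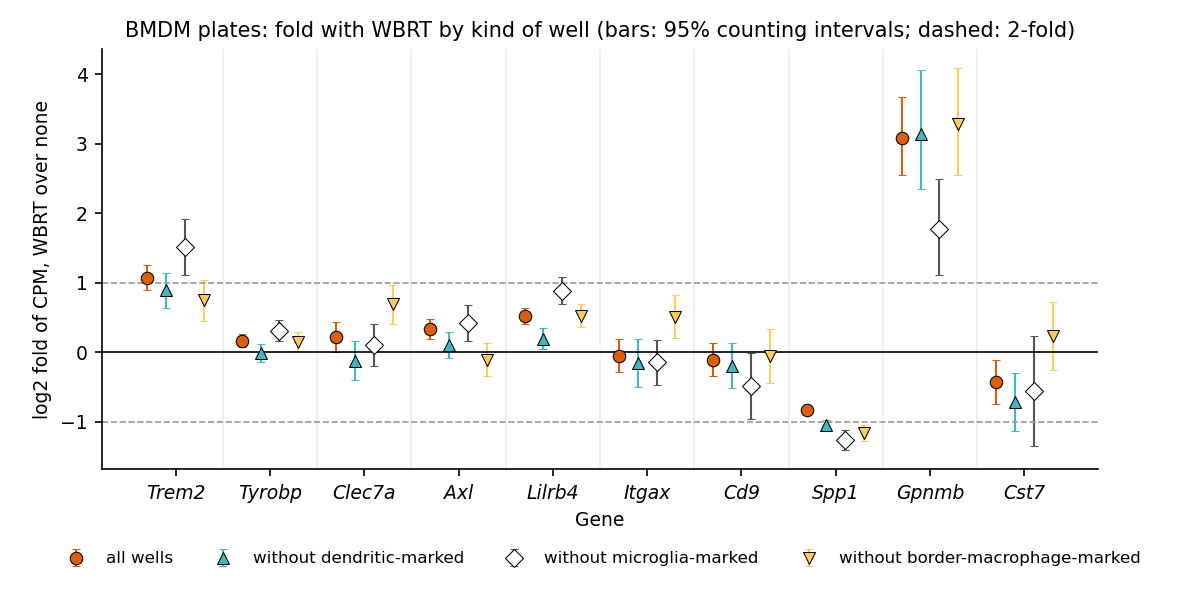
Log2 fold of CPM with WBRT on the BMDM plates for all wells and after leaving out wells with at least 2 markers of dendritic cells, of microglia or of border-associated macrophages, with 95% counting intervals and dashed lines at 2-fold. Gpnmb is above 2-fold in all 4 sets, and Trem2 is on both sides of 2-fold.

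Within a plate, correlations between the 10 genes across wells were low, but sparse counts leave little room for higher ones. On the microglia plate without WBRT, for example, Gpnmb had a count in 1 thinned well and Clec7a in 4. How strongly the genes go together in a cell can therefore not be read from these values. Over the 45 pairs, the median Spearman correlation of counts thinned to 1000 UMIs was 0.07, 0.03, -0.01 and 0.06 in BMDM without, BMDM with, microglia without and microglia with WBRT, and the range over all libraries was -0.17 to 0.32. These are descriptions over 151 to 262 wells of 1 plate at 1 depth. The highest values were those of Spp1 with Gpnmb (0.32) and Clec7a with Gpnmb (0.31) in irradiated microglia, of Spp1 with Cd9 (0.32) in irradiated BMDM and of Spp1 with Trem2 (0.31) in BMDM without WBRT. Of 26 irradiated microglia wells with Gpnmb, 18 also had Clec7a (69.2%), which is 23.7% of the 76 wells with Clec7a. Over all wells of that plate 50.3% had Clec7a and 17.2% had Gpnmb, and these counts are at full depth, where deeper wells hold both genes more easily. A thinned well held a median of 2 of the 10 genes in BMDM without WBRT and 3 in the other libraries, and at most 8.

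For the 6 members with a count in at least 10% of thinned wells of every plate, the most similar of 755 genes were ranked by the mean correlation over the 4 plates. Spp1 was closest to the lysosomal proteases Ctsd (0.44) and Ctsb (0.38) and to the ferritin light chain Ftl1 (0.35). Its correlation with Ctsd was 0.57 and 0.51 in BMDM without and with WBRT, and 0.14 and 0.53 in microglia. Trem2 was closest to the complement gene C1qc (0.29), Ctsd (0.28) and Ctsb (0.28). For Axl, Tyrobp, Lilrb4 and Cd9 the highest means were between 0.18 and 0.21.

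Other genes of the programme and of its pathways, taken from lists, differed in both directions. Of 30 other disease-associated microglia genes tested, 6 were at least 2-fold higher and 2 lower with WBRT in BMDM (median log2 ratio 0.41), and 6 higher and 3 lower in microglia (median 0.01). Over all genes tested, 5.17% were at least 2-fold higher and 6.15% lower in BMDM (median 0.08). In microglia these shares were 9.38% and 7.58% (median 0.06). These values stand beside each list below. The lysozyme gene Lyz2 went from 144 to 1145 CPM in BMDM and from 82.3 to 1003 CPM in microglia. The growth factor gene Igf1 went from 17.4 to 119 CPM in BMDM, and from 2 counts (2.29 CPM) to 285 CPM in microglia, a ratio of 125 (34.0 to 1037). The lipoprotein lipase gene Lpl went from 88.1 to 884 CPM in microglia (fold interval 7.91 to 12.9), and the lysosomal genes Cd68 and Ctsb were 3.48-fold and 2.86-fold higher in BMDM. The galectin gene Lgals3 was 4.63-fold higher in microglia (3.62 to 5.97).

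Of 19 homeostatic microglia genes tested, 2 were at least 2-fold higher and 3 lower in BMDM (median -0.24), and 1 was higher and 0 lower in microglia (median 0.18). Of all genes tested, 5.17% were higher and 6.15% lower in BMDM, and 9.38% and 7.58% in microglia. Fcrls, an Fc receptor-like gene, was 5.40-fold higher in BMDM (4.51 to 6.53) and 3.43-fold higher in microglia (2.68 to 4.41). Siglech, a sialic acid-binding lectin, was lower in BMDM, at 82.2 and 23.5 CPM, and higher in microglia, at 207 and 358 CPM. The microglia transcription factor gene Sall1 was lower in both, at 27.6 and 9.95 CPM in BMDM and 121 and 70.9 CPM in microglia.

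In the list of genes around Trem2 and ITAM signalling, 2 of 18 tested were at least 2-fold higher in BMDM and 0 lower (median 0.29). In microglia 0 of 17 passed in either direction (median 0.03). The shares of all genes tested were 5.17% higher and 6.15% lower in BMDM, and 9.38% and 7.58% in microglia. The adaptor gene Dok3 was 2.55-fold higher in BMDM (1.86 to 3.57) and 1.92-fold higher in microglia (1.13 to 3.30), and the membrane protein gene Ms4a6d 2.34-fold (2.09 to 2.63) and 1.90-fold (1.59 to 2.28). Among 3 genes tested around the TAM receptors, Mertk, the partner receptor of Axl in clearing dying cells, was higher in both sorts, 2.74-fold in BMDM (1.65 to 4.82) and 2.36-fold in microglia (1.50 to 3.76). The ligand gene Gas6 had folds of 0.724 (0.633 to 0.826) in BMDM and 1.14 (0.969 to 1.34) in microglia. In microglia Axl and Mertk thus differed in opposite directions.

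The integrin and Cd44 list, which holds partners of Itgax and receptors of Spp1, had 3 of 9 genes at least 2-fold higher in BMDM and 0 lower (median 0.62), and 2 of 8 higher and 1 lower in microglia (median 0.07). For this list and those that follow, 5.17% of all genes were higher and 6.15% lower in BMDM. In microglia 9.38% were higher and 7.58% lower. Itgav, an osteopontin-binding integrin chain, was 3.41-fold higher in BMDM (2.56 to 4.61) and 3.74-fold higher in microglia (2.38 to 6.05). Cd44 was 2.60-fold (2.12 to 3.20) and 2.70-fold (1.46 to 5.14) higher. Itga9 was 10.5-fold higher in BMDM (6.18 to 19.5), and Itgb3 was lower in microglia, at 57.2 CPM without and 23.1 CPM with WBRT. Of the transcription factor genes linked to the programme, 2 of 8 were at least 2-fold higher in BMDM and 1 lower (median 0.36), and 0 of 6 higher and 1 lower in microglia (median -0.23). Mitf, which encodes a regulator of lysosomal genes, stood at 18.2 and 56.5 CPM in BMDM and 51.4 and 35.4 CPM in microglia, and Bhlhe40 was lower in both sorts, at 159 and 68.5 CPM and at 37.7 and 9.24 CPM. Of 11 cystatin, tetraspanin and related genes, 2 were at least 2-fold higher in BMDM, among them the protease gene Ctsc (433 and 1275 CPM), and 2 lower (median 0.40), and 0 of 11 passed in microglia (median 0.13).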

How the data were processed

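Per the labels' protocols, sorted cells were processed by a service provider with a plate-based single-cell method that counts molecules by UMI. The authors deposited estimated counts per gene and well, made from UMI counts, as the values themselves show: all nonzero values (100%) equal whole UMI counts corrected for collisions among 4096 possible UMIs, within 0.0051. The build was GRCm38, per the submitters' processing notes. Which aligner, counter, annotation and strand setting were used is not given in the sources used here.

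Wells were filtered as described, and counts were summed per plate and divided by all counts outside ERCC rows (CPM). Log2 ratios used CPM plus 5, and genes entered a comparison at 20 CPM or more in 1 of the 2 libraries. Plates held 1265842, 2513025, 874710 and 649107 counts in kept wells (BMDM without and with WBRT, microglia without and with WBRT). The 3 counts that a 0 allows come to 1.19 to 4.62 CPM. For intervals, sums of estimated counts were rounded to whole numbers. No doublet caller was run: cells were sorted singly into wells, per the labels. No test was made, and edgeR 4.0.16 gave TMM factors for one alternative only. The interval script was tested on simulated data. Python 3.11.15 with pandas 2.3.3 and scipy 1.17.1 was used.

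The 10 genes and the gene lists were chosen with earlier results of these data known. All 10 members are named, and of each other list up to 4 genes with the largest absolute log2 ratio per comparison. Of 186 list symbols 18 were not found. The value of 1 gene that this rule and the likeness ranking reach is not reported here. Alternatives covered the well filters, weighting, thinning, scaling, the pseudocount, the filter on low values and sets of wells.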

Additional observations from a re-analysis of the deposited data

Results flagged for a closer look

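Spp1 and Axl are listed because their log2 ratios with WBRT had opposite signs in the sorts, with counting intervals of the fold that exclude 1 in both. Cst7 (-0.41 and 0.16) and Cd9 (-0.11 and 0.17) also had opposite signs, without meeting that limit. Spp1 was at -0.83 in BMDM and 0.39 in microglia. Axl was at 0.33 in BMDM and -0.66 in microglia. Each sort has 1 library per condition, and the difference was not tested. The Spp1 value in BMDM rests on the 5% of wells with the most Spp1 (0.02 without them), and the Axl value in BMDM was -0.11 without border-macrophage-marked wells.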

How the results depend on the processing

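No paired analysis was possible because each group is 1 library and the labels give no replicate numbers. Leaving out a library was not possible either. Of 300 log2 ratios of single genes under alternatives, 213 stayed within the counting interval and 87 did not. Over 15 alternatives per sort the log2 ratio of Gpnmb ranged from 1.65 to 3.57 in BMDM and from 0.99 to 3.37 in microglia. That of Clec7a in microglia ranged from 2.45 to 3.96. That of Trem2 ranged from 0.74 to 1.50 in BMDM and from 0.18 to 0.75 in microglia. Axl in microglia ranged from -0.88 to -0.03 (thinned wells), Cd9 in BMDM from -0.64 to 1.13, and Cst7 in BMDM from -0.68 to 0.23. Lilrb4 in microglia kept its sign in 7 of 15. In BMDM the number at least 2-fold higher was 1, not 2, with 3000 counts per well. The same held with totals without mitochondrial, ribosomal and long noncoding counts. It also held without wells rich in Kcnq1ot1, without dendritic-marked or without border-macrophage-marked wells. Under these settings 4.47% to 8.51% of all genes tested were at least 2-fold higher. The number at least 2-fold lower was 1, not 0, with 3000 counts per well and without wells rich in Kcnq1ot1. It was also 1 without dendritic-marked, without microglia-marked or without border-macrophage-marked wells. Under these settings 6.02% to 8.34% of all genes tested were at least 2-fold lower. With only wells under 1000 CPM of Malat1 the number lower was 2, where 21.6% of all genes tested were lower. The BMDM median turned to -0.07 without dendritic-marked wells and was 0.36 without border-macrophage-marked wells. In microglia the number higher was 1 with a filter of 100 CPM (9 genes left) and with only microglia-marked wells. Of all genes tested, 7.12% and 8.42% were higher under these settings, in that order. The number lower was 1 with wells weighted alike, with thinning and without wells under 1000 CPM of Malat1, which also turned the median to -0.14. Of all genes tested, 11.7%, 17.9% and 9.07% were lower there, in that order. The sets with only wells under that Malat1 limit, without border-macrophage-marked wells and with only microglia-marked wells were chosen after seeing the data. Beyond these effects of which wells and genes entered, the cause was not tested. Depth limits Gpnmb, Clec7a and Itgax in microglia most, with 6, 39 and 35 counts in the library where each was lower.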
